A study of Rattus norvegicus with 6 samples.

Results

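The immediate early genes described here are Fos, Fosb, Jun, Junb, Egr1, Atf3, Ier2, Ier3, Nr4a1 and Dusp1, in the renal cortex of rats given ethylenediamine dihydrochloride and of rats given water. They were chosen by name, and every probe whose RefSeq accession maps to one of these symbols was taken, which gave 13 of the 61515 probes in use. All 10 genes passed the filter on dim probes, among 11530 genes tested. Fos, Jun and Junb each had 2 probes and the other genes 1.

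The treated rats were 3 male Sprague-Dawley rats given ethylenediamine dihydrochloride, a small diamine salt, at 500 mg/kg/day for 4 weeks. Their controls were 3 male Sprague-Dawley rats given water for 4 weeks. All 6 rats were bought at 5 weeks of age and ate the same basal diet, and the cortex of each was hybridised to its own 1-colour array. Levels below are log2 signals relative to the 75th percentile of the array, so a level of 0 is that percentile. The labels do not give the time between the last dose and the removal of the kidney, nor the hour of the day.

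The 6 arrays lay on 2 slides scanned on different days. Slide 1 held ethylenediamine replicate 1 and all 3 water arrays, and slide 2 held ethylenediamine replicates 2 and 3. Values within slide 1 therefore rest on 1 treated array, and slide 2 gives none of its own. Between 35691 and 40843 probes per array were well above background, the fewest on ethylenediamine replicate 1. All 8 proximal tubule markers, all 8 thick limb and distal nephron markers and all 6 podocyte markers listed for the check of the tissue were measured. As cortex was taken as a whole, fewer cells of a type and less RNA per cell cannot be told apart.

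Immediate early genes are switched on within minutes of a stimulus without new protein synthesis, through kinase cascades that act on transcription factors already in the cell, such as serum response factor and CREB. Their messenger RNAs are short-lived, so a level shows recent signalling more than a settled state. Many encode transcription factors: FOS and JUN proteins pair to form AP-1, and EGR1 and NR4A1 bind DNA on their own account. In the kidney they are known for rapid induction after ischaemic or toxic injury to the tubules and for their response to handling of the tissue.

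RefSeq promoter windows, from 250 bases before to 50 bases after the annotated start on GRCr8, were found for 6 of the 10 genes: Fosb, Junb, Egr1, Ier2, Nr4a1 and Dusp1. GRCr8 is not the build of the array's probe grid. The windows were searched on both strands for the CArG box (the serum response factor motif), the cyclic AMP response element CRE (TGACGTCA), AP-1 (TGACTCA), EGR (GCGGGGGCG or GCGTGGGCG) and the TATA box, and no match in these 6 windows overlapped another. The Ier2 stretch is shown because Ier2 had a Pearson's r of 0.82 with Fos over the 6 arrays, within a 1.13-fold range of its own. Those of Egr1, Dusp1 and Nr4a1, chosen after the search, are shown because they carry a match to a signal-response motif. Each line gives the 150 bases before the start, on the plus strand and 5′ to 3′, with the match in capitals. They lie at chr19:40399223-40399372 (Ier2), chr18:26736928-26737077 (Egr1), chr10:17184703-17184852 (Dusp1) and chr7:134259988-134260137 (Nr4a1).
Ier2: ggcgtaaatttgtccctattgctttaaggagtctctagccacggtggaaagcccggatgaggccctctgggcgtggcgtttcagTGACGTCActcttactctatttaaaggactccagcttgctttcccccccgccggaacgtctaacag
Egr1: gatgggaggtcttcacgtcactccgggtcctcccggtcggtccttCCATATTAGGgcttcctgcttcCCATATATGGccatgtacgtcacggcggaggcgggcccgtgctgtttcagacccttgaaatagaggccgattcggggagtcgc
Dusp1: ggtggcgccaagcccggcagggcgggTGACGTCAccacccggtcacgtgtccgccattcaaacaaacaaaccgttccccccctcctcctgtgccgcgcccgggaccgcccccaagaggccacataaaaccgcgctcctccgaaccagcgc
Nr4a1: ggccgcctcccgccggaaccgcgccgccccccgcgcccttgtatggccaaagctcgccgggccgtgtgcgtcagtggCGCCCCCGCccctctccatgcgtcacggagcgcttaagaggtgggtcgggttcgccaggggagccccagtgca

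Egr1 held 2 CArG boxes, beginning 105 and 83 bases before the start, and was the 1 gene of the 6 with that motif, which 1.64% of all 33469 promoter windows held. Ier2 and Dusp1 each held a CRE, beginning 66 and 124 bases before their starts, a motif present in 1.83% of all windows. Nr4a1 held an EGR motif on the opposite strand (3.2% of all windows). Junb and Fosb held only a TATA match, with the letters TATAAA (14.2% of all windows), on the opposite strand in Fosb, and the AP-1 motif (4.63% of all windows) was found in 0 of the 6. These are matches of letters and not tested binding sites.

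**Figure D1:**
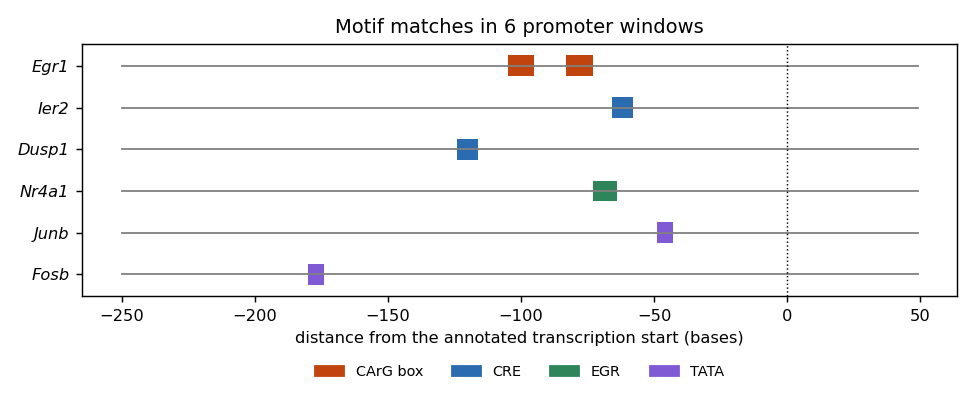
Motif matches in the 6 promoter windows, by distance from the annotated transcription start in bases (x axis, start at 0). Each grey line is a window and each coloured block a match: Egr1 has 2 CArG boxes, Ier2 and Dusp1 have a CRE each, and Nr4a1 has an EGR motif.

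None of the 10 genes passed the threshold between ethylenediamine-treated and water-treated cortex by limma. At an adjusted p under 0.05, 0 members were called, and 0 of 11530 genes over the whole table (0%). At an unadjusted p under 0.05, 0 of the 10 members were called, where 10.4% of all genes were. The treated and water arrays overlapped for all 10 members, whereas for 17.5% of all genes they did not (9.2% higher and 8.27% lower in treated cortex). The members' median log2 fold change, ethylenediamine over water, was 0.11, with 8 positive and 2 negative, against a median of -0.0036 over all genes tested. The adjusted p of the members lay between 0.593 (Junb) and 0.986 (Dusp1).

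The intervals show how large a difference the 6 arrays leave possible in a fit with no term for slide. Ethylenediamine replicates 2 and 3 were the only arrays on slide 2, so a difference between slides is not covered by these intervals. For 7 of the 10 genes the 95% interval of the moderated fit lay within a 2-fold change in either direction. The intervals of Fos, Egr1 and Nr4a1 were wider and held a 2-fold change. The narrowest was that of Ier2, from 0.899-fold to 1.16-fold, and among the widest was that of Fos, from 0.714-fold to 2.24-fold. A p that misses the threshold does not show that the levels were equal.

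**Figure D2:**
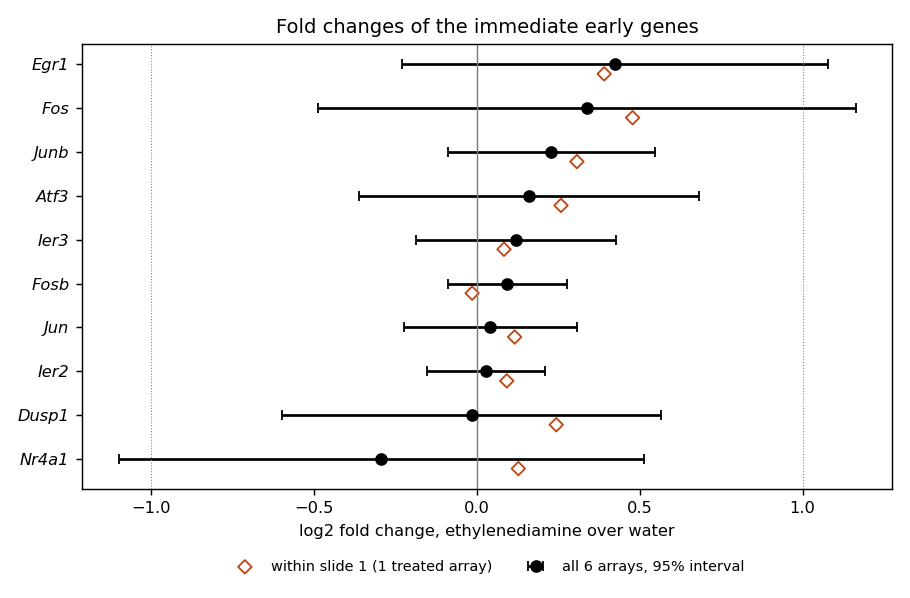
Log2 fold change of each immediate early gene, ethylenediamine over water (x axis), with the 95% interval of the moderated fit over all 6 arrays (black) and the value within slide 1 (open diamonds, 1 treated against 3 water arrays). All 10 intervals cross 0, and dotted lines mark a 2-fold change; Fosb, Dusp1 and Nr4a1 have the opposite sign within slide 1.

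Fos encodes the FOS subunit of AP-1, the best known early marker of cell stimulation. Its brighter probe read -3.76, -3.79 and -4.14 in ethylenediamine replicates 1 to 3, and -4.02, -4.98 and -3.71 in water replicates 1 to 3. The groups overlapped, and water replicate 2 lay apart from the other arrays on the low side. The probe was close to the detection limit: its processed signals ran from 54.8 to 66.2 units in treated and from 27.2 to 71.6 units in water cortex, and it was not well above background on water replicate 2. Its log2 fold change was 0.34 ± 0.33, where the error is the standard error with 3 rats in each group here and below (adjusted p = 0.744). It was -0.03 without water replicate 2, and 0.48 within slide 1.

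The second Fos probe was well above background on 2 treated arrays and 1 water array, too few to be tested. It read -5.14, -5.08 and -5.16 in treated cortex, against -4.86, -5.65 and -5.21 in water cortex. It was not well above background on ethylenediamine replicate 1 and water replicates 2 and 3, so the order of its values is not read. Probes below background on every array had a median of -6.53 on ethylenediamine replicate 1, and from -7.55 to -7.23 on the other arrays, so dim signals stood higher on that array. The part of this in the Fos value of that array was not tested.

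Fosb encodes a FOS relative that also pairs with JUN proteins. It read -0.11, 0.08 and 0.03 in treated cortex, and -0.03, -0.07 and -0.17 in water cortex. The groups overlapped and all 6 values lay within a 1.19-fold range. Fosb had a log2 fold change of 0.09 ± 0.07 (adjusted p = 0.687), and -0.01 within slide 1.

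Jun encodes the JUN subunit of AP-1, which can pair with itself or with FOS. Its brighter probe read 3.03, 2.99 and 2.85 in treated cortex, and 2.90, 3.10 and 2.74 in water cortex. The treated values lay inside the range of the water values, whose highest was replicate 2 and lowest replicate 3. Jun had a log2 fold change of 0.04 ± 0.11 (adjusted p = 0.913; 0.12 within slide 1). The other Jun probe had -0.02 ± 0.10 when every probe was tested alone, with the same highest and lowest arrays.

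Junb encodes a JUN relative with weaker transactivating power that can restrain JUN. It read 2.90, 2.79 and 2.77 in treated cortex, and 2.43, 2.47 and 2.87 in water cortex. The treated arrays were tightly grouped, and water replicate 3 lay among them while water replicates 1 and 2 lay below. The log2 fold change was 0.23 ± 0.13 (adjusted p = 0.593; 0.31 within slide 1). It was 0.15 without water replicate 1 and 0.17 without water replicate 2. Without water replicate 3 it was 0.37, at an unadjusted p under 0.05 and an adjusted p of 0.555.

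The dimmer Junb probe read -2.79, -2.61 and -2.56 in treated cortex, and -3.15, -3.31 and -2.73 in water cortex. Water replicate 3 again lay inside the treated range, with water replicates 1 and 2 below. The order of the arrays within each group differed from that of the brighter probe. Tested among 37822 separate probes, its log2 fold change was 0.41 ± 0.16, at an unadjusted p of 0.0437 and an adjusted p of 0.454. It was the 1 member probe of the 12 tested with an unadjusted p under 0.05, and it did not pass the adjustment.

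Atf3 encodes a stress-responsive factor of the ATF/CREB family that can pair with JUN proteins and often acts as a repressor. It read -0.77, -0.64 and -1.19 in treated cortex, and -0.77, -1.39 and -0.93 in water cortex. The lowest array of each group, ethylenediamine replicate 3 and water replicate 2, set the spread. The log2 fold change was 0.16 ± 0.21 (adjusted p = 0.807), 0.26 within slide 1 and -0.02 without water replicate 2.

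Egr1 encodes a zinc finger transcription factor that responds to growth factors, and its promoter stretch above carries both CArG boxes. It read -3.26, -3.63 and -2.78 in treated cortex, and -3.65, -3.98 and -3.31 in water cortex. Ethylenediamine replicate 3 was the highest and water replicate 2 the lowest, and ethylenediamine replicate 2 lay inside the water range. Its log2 fold change was 0.42 ± 0.26 (adjusted p = 0.623; 0.39 within slide 1). It was 0.20 without ethylenediamine replicate 3 and 0.26 without water replicate 2, and ran up to 0.63 without ethylenediamine replicate 2. The Egr1 probe was dim too, from 71.7 to 141 units in treated and from 54.2 to 94.8 units in water cortex. Its value within slide 1 rests on ethylenediamine replicate 1, where dim signals stood higher, and the part of this was not tested.

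Nr4a1 encodes the orphan nuclear receptor NUR77. It read 0.75, 0.20 and 0.04 in treated cortex, and 1.27, 0.38 and 0.23 in water cortex. Replicate 1 was the highest array of each group, and water replicate 1 was the highest of all. Nr4a1 had a log2 fold change of -0.29 ± 0.33 (adjusted p = 0.768). It was 0.03 without water replicate 1, and 0.13 within slide 1.

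Ier2 and Ier3 are small early response genes, and IER3 is known as a regulator of cell survival. Ier2 read 2.42, 2.38 and 2.26 in treated cortex, and 2.30, 2.25 and 2.42 in water cortex, the narrowest range of the 10 genes at 1.13-fold over all 6 arrays. Ier3 read 0.84, 1.12 and 0.67 in treated cortex, and 0.73, 0.69 and 0.85 in water cortex. The groups overlapped for both, and the highest Ier3 value was ethylenediamine replicate 2. The log2 fold change was 0.03 ± 0.07 for Ier2 (adjusted p = 0.916; 0.09 within slide 1), with a negative sign under median scaling, and 0.12 ± 0.12 for Ier3 (adjusted p = 0.752; 0.08 within slide 1).

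Dusp1 encodes a phosphatase that switches off the MAP kinases which induce these genes. It read -2.36, -2.68 and -2.82 in treated cortex, and -2.62, -2.18 and -3.03 in water cortex. The water arrays spanned the whole range, from replicate 3 at the bottom to replicate 2 at the top. The log2 fold change was -0.01 ± 0.24 (adjusted p = 0.986), and 0.24 within slide 1.

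**Figure D3:**
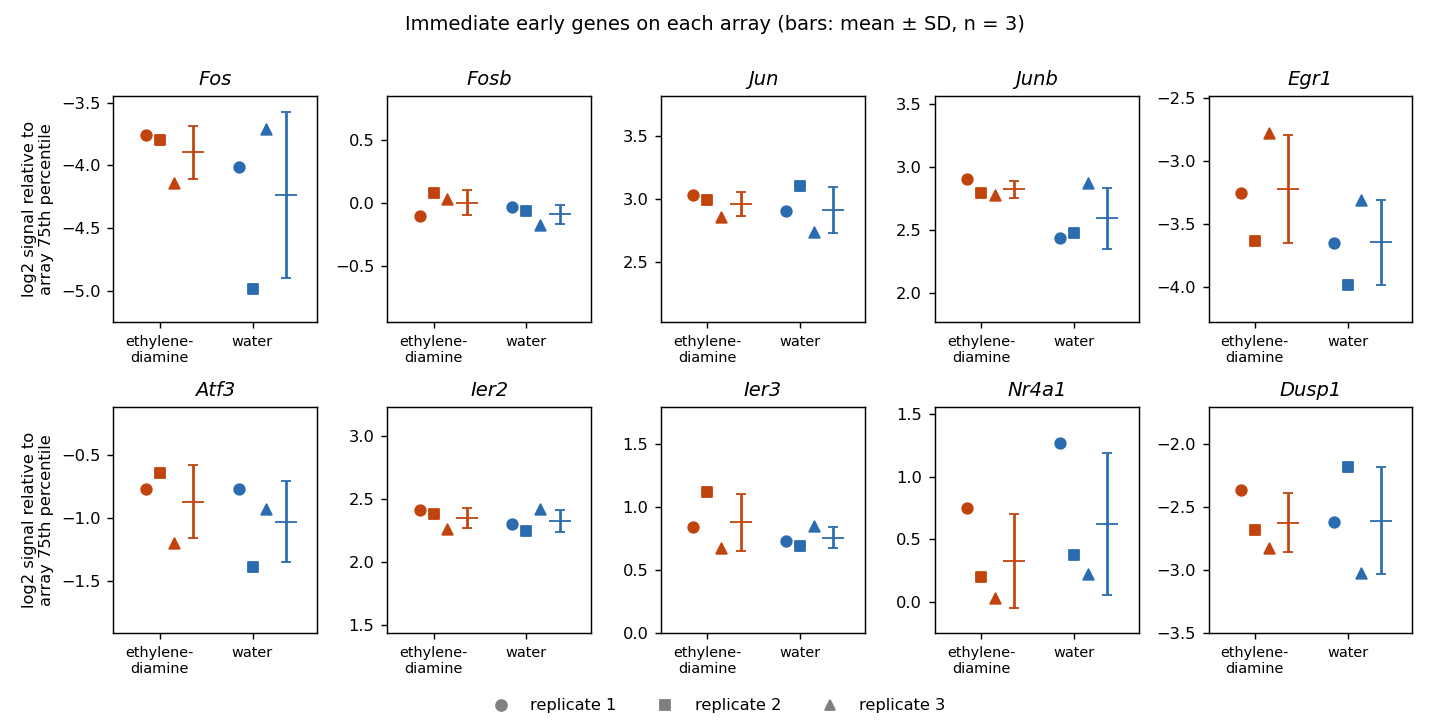
Log2 signal of each immediate early gene relative to the array's 75th percentile (y axis, the same span in every panel) for the 3 ethylenediamine arrays (red, left) and the 3 water arrays (blue, right), with the mean ± SD of each group beside the points. The groups overlap in all 10 panels, and the water arrays of Fos, Nr4a1 and Dusp1 spread widely.

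For some of these genes the spread among rats of one group was wide. In water cortex, Fos spanned a 2.41-fold range, Nr4a1 2.06-fold and Dusp1 1.80-fold, while Ier3 spanned 1.12-fold. The low end of the Fos range is water replicate 2, where its probe was not well above background, so its place in this order is uncertain. In treated cortex the widest were Egr1 at 1.81-fold and Nr4a1 at 1.64-fold. The SD was smaller than in water cortex for 7 of the 10 genes, and the share of all genes with a smaller SD was not computed. The treated arrays lay on both slides and the water arrays on slide 1 alone, so the SDs of the groups also differ in this. The SD over the water arrays was above the 90th percentile of all genes tested for 5 members (Fos, Nr4a1, Dusp1, Egr1 and Atf3), and the SD over the treated arrays for 2 (Egr1 and Nr4a1). To compare at a like signal, each member was also set among the 1000 genes nearest to it in mean signal. There the water SD stood at the percentile 98.6 for Nr4a1, 94.7 for Fos, 94.4 for Junb, 92.0 for Atf3, 90.4 for Dusp1 and 90.3 for Jun. Egr1 stood at 79.7 among genes of like signal, below the 90th percentile, and Fosb at 40.4. An SD over 3 arrays is itself imprecise, and these ranks are a description.

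The members did not all vary in one direction from array to array. Water replicate 2 was the lowest array for 4 members, Fos, Egr1, Atf3 and Ier2, and the highest for 2, Jun and Dusp1. Of all genes, 17.3% were lowest and 16.9% highest on that array. Jun and Dusp1 had the closest pattern of any pair, with Pearson's r of 0.95 over the 6 arrays, and Fos and Dusp1 the most opposed, at -0.64. With 6 arrays shared by every pair, and the deviation of water replicate 2 in many of them, these values are a description.

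Set against Fos over the 6 arrays, Atf3 (r = 0.84) and Ier2 (r = 0.82) were the most similar members, followed by Junb (0.69). Without water replicate 2 and ethylenediamine replicate 3, the arrays farthest from the Fos median, r was 0.98 for Ier2 and for Junb and -0.28 for Atf3. Spearman's rho with Fos was 1 for Ier2 and 0.60 for Atf3. The Fos probe was not well above background on water replicate 2, its lowest array, and Ier2 ranged only 1.13-fold over the 6 arrays. These values over 6 shared arrays are given as a description. By r over the whole table, Atf3 ranked 181 and Ier2 227 of 11529 genes. The 5 genes with the highest r were Slc6a11 (0.99), Dusp15 (0.98), Sptlc2 (0.97), Slfn9 (0.97) and Slc35e1 (0.96), and all 5 were lowest on water replicate 2. Of these, Dusp15 read 3.44, 2.43 and 2.01 in treated cortex, against 2.80, -3.41 and 3.75 in water cortex.

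**Figure D4:**
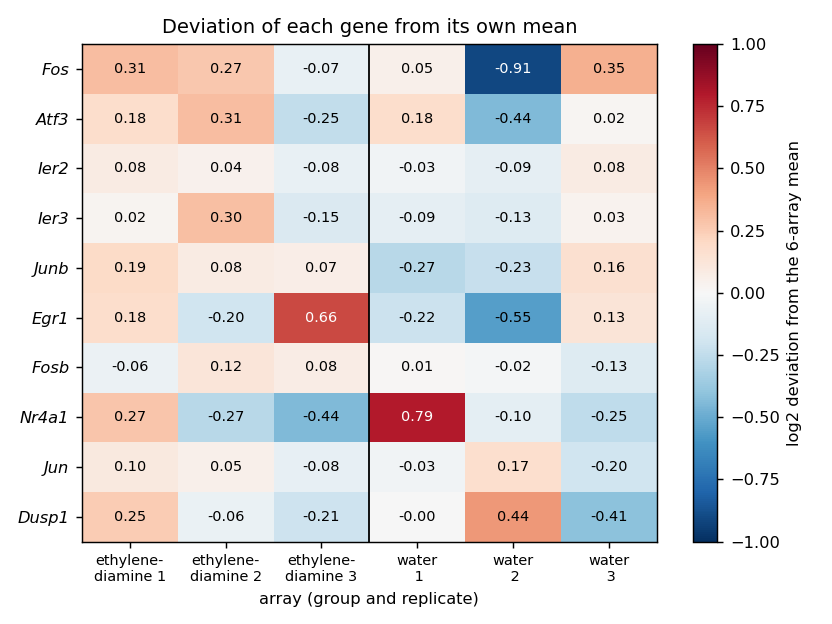
Deviation of each immediate early gene (rows) from its own 6-array mean, in log2 units, on the 3 ethylenediamine arrays (left of the line) and the 3 water arrays (right). Fos, Egr1 and Atf3 are lowest on water replicate 2 (-0.91, -0.55 and -0.44), where Dusp1 is highest (0.44), and Nr4a1 is highest on water replicate 1 (0.79).

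Of 50 other immediate early and early response genes, 40 were measured, and by limma 0 were called after adjustment over all genes. Before adjustment, 2 had a p under 0.05 and were higher and 1 was lower, against 5.39% of all genes higher and 4.97% lower, and the list's median log2 fold change was 0.04. The nuclear receptor gene Nr4a2, a relative of Nr4a1, read -0.78, -0.75 and -0.94 in treated cortex, against -1.18, -0.93 and -1.21 in water cortex, with a log2 fold change of 0.28 ± 0.10 (adjusted p = 0.438) and overlapping groups. Plk2, a stress-responsive kinase, stood at 0.69 ± 0.28 (adjusted p = 0.479). The Notch target Hes1 stood at -0.75 ± 0.29 (adjusted p = 0.468) and the kinase Plk3 at -0.54 ± 0.25. Within slide 1 Hes1 stood at -0.14. The count of 3 is no larger a share than the background, and it was 0 without ethylenediamine replicate 2, 1 without water replicate 1, 5 without water replicate 3. Fitting slide as a block left 1.

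Upstream of the members, 23 of 25 listed growth factors, vasoactive peptides and receptors were measured, of which 1 was higher and 4 lower at an unadjusted p under 0.05, against 5.39% of all genes higher and 4.97% lower, and 0 after adjustment. The one higher was Areg, the epidermal growth factor receptor ligand amphiregulin, at 0.57 ± 0.19 (adjusted p = 0.407). It read -2.70, -2.74 and -2.27 in treated cortex, against -3.43, -2.89 and -3.08 in water cortex, with no overlap. The angiotensin receptor gene Agtr1a stood at -0.36 ± 0.10, the beta-1 adrenergic receptor gene Adrb1 at -0.30 ± 0.09, and Egf, a product of the distal tubule, at -0.36 ± 0.12, with adjusted p from 0.360 to 0.429. Within slide 1 Egf stood at -0.12. Hbegf, another ligand of the same receptor as Areg, stood at -0.19 ± 0.07. The count of 5 was 2 without ethylenediamine replicate 3, 2 without water replicate 2 and 3 without water replicate 3.

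The signalling genes between receptor and promoter gave 0 calls after adjustment, and 0 at an unadjusted p under 0.05, where 10.4% of all genes were called. Of the kinase cascade, 22 of 24 genes were measured, with a median log2 fold change of 0.01. The small GTPase gene Hras stood at 0.11 ± 0.06 and Map2k4 and Map2k3, kinases of the stress arm, at -0.10 ± 0.06 and -0.11 ± 0.08. Of the resident transcription factors and AP-1 partners, 24 of 27 were measured, with a median of -0.02. Nab2, a corepressor of EGR1, stood at 0.23 ± 0.11 (adjusted p = 0.521), the stress sensor gene Atf6 at -0.15 ± 0.07, the JUN partner gene Atf2 at -0.17 ± 0.09 and Batf, a leukocyte AP-1 partner, at 0.13 ± 0.08. Within slide 1 Hras stood at 0.08, Atf6 at -0.05, Atf2 at -0.09 and Batf at 0.23. At an unadjusted p under 0.05, 1 kinase gene was called without ethylenediamine replicate 3 and 2 within slide 1 (1 higher and 1 lower), and of the factors 2 were called without ethylenediamine replicate 1 and 3 without water replicate 3. An array measures transcript levels and not the phosphorylation through which these kinases and factors act.

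Serum response factor drives contractile genes as well as immediate early genes. Of its 20 listed contractile targets 16 were measured, of which 6 were higher at an unadjusted p under 0.05 and 0 lower, against 5.39% of all genes higher, and 0 passed after adjustment. The smooth muscle gene Tagln read 0.73, 0.89 and 0.76 in treated cortex, against -0.18, -0.07 and 0.16 in water cortex, with no overlap, and its log2 fold change was 0.83 ± 0.10 (adjusted p = 0.209). Acta2 stood at 0.41 ± 0.09, the actin cross-linker Flna at 0.29 ± 0.07 and Tpm2 at 0.42 ± 0.10. The list is largely one of smooth muscle, and 3 of 6 measured smooth muscle and juxtaglomerular markers were higher at an unadjusted p under 0.05. Both lists hold Acta2 and Tagln among others, so the marker count partly counts the same genes again. The summed log2 level of the markers ranged from 5.24 to 5.76 in treated and from 4.72 to 5.38 in water cortex. It sums linear levels, so the brightest markers weigh most, and its part in the contractile values was not tested. Within slide 1 the count of contractile targets was 3.

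Of 17 heat shock and handling stress genes, 15 were measured and 0 had an unadjusted p under 0.05, against 10.4% of all genes, with a median log2 fold change of -0.07. The small heat shock protein gene Hspb1 stood at 0.31 ± 0.14 (adjusted p = 0.521), Hsp90aa1 at 0.09 ± 0.06, and the metallothionein genes Mt2A at 0.09 ± 0.07 and Mt1 at 0.12 ± 0.09. Within slide 1 Mt2A stood at 0.03 and Mt1 at 0.07. The count was 1 without water replicate 2, 1 without water replicate 3 and 2 with the mean of a gene's probes. Of 16 tubular injury genes 14 were measured, with a list median of 0.35, and 6 of them were higher and 0 lower at an unadjusted p under 0.05, against 5.39% of all genes higher. After adjustment 0 passed. Havcr1, which encodes kidney injury molecule 1, was well above background on 3 treated arrays and 2 water arrays and stood at 2.56 ± 0.46 (adjusted p = 0.329), the membrane glycoprotein gene Gpnmb at 0.95 ± 0.25, the annexin gene Anxa2 at 0.33 ± 0.09 and the metalloproteinase inhibitor gene Timp1 at 0.37 ± 0.12. Havcr1 was therefore kept through the treated arrays alone, where its level was high. With the filter on all 6 arrays it was left out, and the injury count was 5 of 13, all higher. The difference between the injury genes and the immediate early genes was not tested. Within slide 1, with 1 treated array, Havcr1 stood at 1.49, Gpnmb at 0.48, Anxa2 at 0.16 and Timp1 at 0.11. The injury count was 3 without ethylenediamine replicate 3, all higher, and within slide 1 it was 2, of which 1 was higher and 1 lower.

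**Figure D5:**
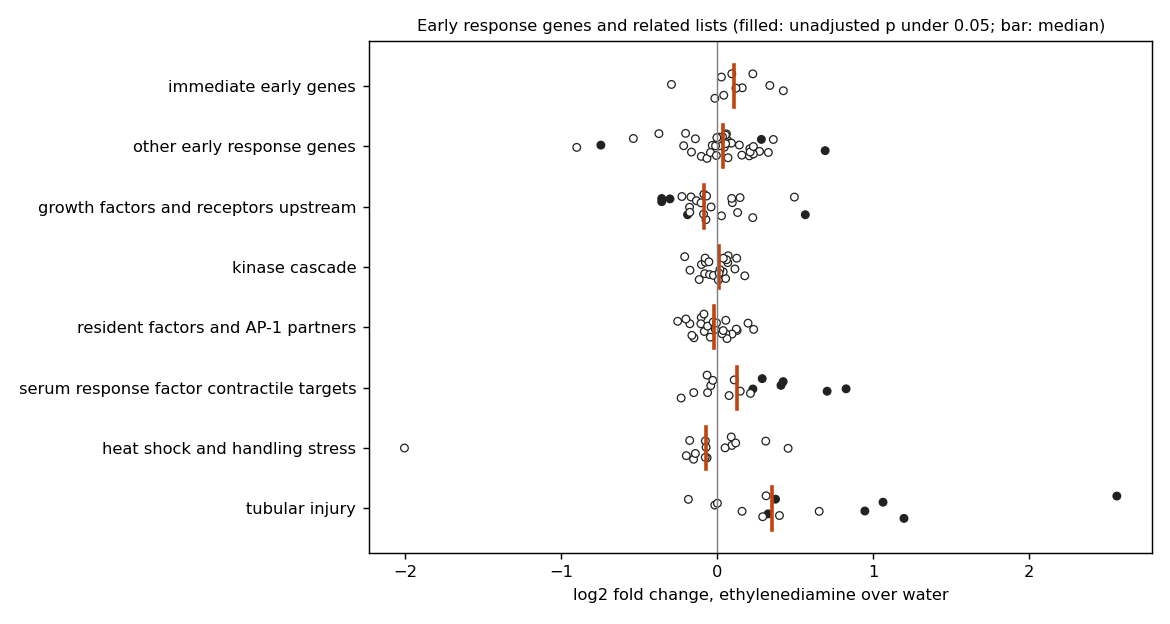
Log2 fold change, ethylenediamine over water (x axis), of the immediate early genes and of the measured genes of 7 related lists (rows). Each circle is a gene, filled where the unadjusted p by limma is under 0.05, and bars mark list medians. Filled are 0 of the 10 immediate early genes, 6 of 16 contractile targets and 6 of 14 injury genes. Of all genes tested, 10.4% had such a p, and differences between the lists were not tested.

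Markers of the cell types that cortex can hold were counted in the same way, against 5.39% of all genes higher and 4.97% lower. The number at an unadjusted p under 0.05 was 0 of 9 measured leukocyte markers, 1 of 8 endothelial markers (lower), 0 of 6 podocyte markers, 0 of 4 red blood cell markers, 0 of 6 adipose markers and 1 of 3 adrenal markers (higher). It was 1 of 8 for the proximal tubule and 3 of 8 for the thick limb and distal nephron, all lower. The summed log2 level of the leukocyte markers ranged from 6.07 to 6.12 in treated and from 5.85 to 6.33 in water cortex. It sums linear levels and is almost that of Lyz2 alone, from 5.99 to 6.03 in treated and from 5.76 to 6.24 in water cortex. Each other measured leukocyte marker was far dimmer, so the sum does not describe leukocytes as a whole. By limma 0 of the cell type markers passed after adjustment over all genes.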

How the data were processed

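Cy3-labelled cRNA from 0.2 ug of total RNA per rat was hybridised, per the labels' protocols. Per the file headers, the deposited intensity of each spot is linear, and Agilent Feature Extraction 10.7.1.1 (10.7 in the submitters' processing notes) had subtracted the background and removed spatial trends on an rn4 grid. Arrays were not yet scaled to each other. The authors' table of scaled intensity served only as an alternative.

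Here each array's log2 intensity had its 75th percentile subtracted. Control spots (1439) and 22 outlier-flagged probes were left out, and 0 spots were saturated. Probes were named by RefSeq accession through GRCr8 gene names (28194 of 61515). Probes well above background on all 3 arrays of a group were kept (37822), and the brightest stood for each gene. Groups were compared over 11530 genes with limma (version 3.58.1, R 4.3.3), using lmFit and eBayes and a Benjamini-Hochberg threshold of 0.05, tested on simulated data. Errors given with a fold change, and 95% intervals, come from that moderated fit. The number of arrays limits the precision. For normexp the median spot signal was used in place of the planned mean signal.

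The members, lists and tests were chosen with earlier results of these data known. The text names all 10 members, the 4 genes with the smallest p of each related list, and the 5 genes most like Fos, with Havcr1 fixed as the injury marker. One gene that this rule names is not reported here. Hbegf, outside this rule, was named after its value was seen, because all 5 genes of its list with an unadjusted p under 0.05 are given. Lyz2, also outside the rule, was named because it carries most of a summed level. Alternatives were background, scaling, filter, probe choice, variance model, slide, replicate block and leaving out each array.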

Additional observations from a re-analysis of the deposited data

How the results depend on the processing

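No member passed the adjusted threshold by limma under any of the 20 alternatives. The number of genes called over the whole table, 0 as reported, was 4 with every probe tested alone, 1 with an intensity trend, 10 with the slide as a fixed block and 6 within slide 1, and between 0 and 1 when each array was left out (1 without water replicate 2 and 1 without ethylenediamine replicate 1). The number of members at an unadjusted p under 0.05 by limma was 0 as reported and 2 with a replicate block (Egr1 and Nr4a1). With that block, 948 of 11530 genes over the whole table had such a p. When each array was left out, the number of members was between 0 and 1. It was 1 without water replicate 3, where 907 of 11530 genes had such a p. Whether the replicate numbers pair the samples was not tested. The deviations of same-numbered arrays correlated at -0.003, 0.02 and -0.008, and those of differently numbered arrays from -0.03 to 0.03. With the block 0 genes passed the threshold, as without it, so that count cannot decide the question. The members' median log2 fold change ranged from 0.04 to 0.19 over the alternatives, and from 0.04 to 0.15 when each array was left out.

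Junb and Egr1 were positive under all 20 alternatives. Ier2 was -0.000737 with median scaling, Dusp1 was 0.0411 with array weights, and within slide 1, as under the slide block, Fosb was -0.0137, Nr4a1 0.13 and Dusp1 0.24. When each array was left out, the log2 fold change ran from -0.033 to 0.60 for Fos, from -0.0458 to 0.14 for Jun, from 0.15 to 0.37 for Junb, from 0.20 to 0.63 for Egr1, from -0.0185 to 0.32 for Atf3, from -0.0107 to 0.0757 for Ier2, from -0.000933 to 0.22 for Ier3, from -0.50 to 0.0303 for Nr4a1 and from -0.22 to 0.20 for Dusp1. The cause was not tested. Fos gave no value with the filter on all 6 arrays, since water replicate 2 was not well above background. Signal over background limits Fos, whose second probe failed the filter, and Egr1 was also dim. With normexp background the log2 fold change was 0.14 for Fos and 0.32 for Egr1. Over the 7 related lists, 27 of 140 counts moved by more than 1.5 times.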
